A study of Mus musculus with 7 samples.

Results

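The 39 genes described here are a set of DNA replication and mitosis genes, and they were chosen by symbol from the 18907 features, spike-ins left out, of the deposited tables. The set holds 18 replication genes, from Mcm2 to Cdca7, and 21 mitosis genes, from Mki67 to Cdc20, and the transcripts of each group were summed apart. Gastric glands of wild-type (titled WT) C57BL/6 mice were isolated from the corpus (the body of the stomach, where acid is made) and from the pylorus (its outlet) and were digested to single cells. Living cells, which did not take up the dye DAPI, were sorted 1 to a well for SORT-seq, a plate-based form of CEL-seq2 that counts transcripts by unique molecular identifiers (UMIs). The series holds 4 plates labelled corpus and 3 labelled pylorus, each of 384 wells, and no treatment sets the plates apart. The labels give no age and tie no plate to an animal, and p-values therefore measure the spread from plate to plate.

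Cells copy their DNA once in each division. The helicase MCM2-7, loaded on DNA by Cdc6 and joined by the GINS subunit Gins2, opens the double strand, and the clamp Pcna holds the polymerases on it. Rrm1, Rrm2 and Tyms supply nucleotides, Slbp serves the histone transcripts, and Chaf1b and Uhrf1 restore chromatin and DNA methylation behind the fork. Later, Cdk1 with cyclins A2, B1 and B2 starts mitosis, Top2a untangles the chromosomes, Aurka, Aurkb, Plk1, Tpx2, Kif23 and Prc1 build and split the spindle, and Cdc20 and Ube2c mark the cyclins for destruction. Replication genes are textbook targets of E2F factors, and many mitosis genes carry CHR and CCAAT elements that the DREAM complex and NF-Y bind. The adult gastric epithelium renews itself from dividing cells of the gland isthmus and neck, while chief cells at the gland base and the acid-secreting parietal cells rarely divide.

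The promoters show how the modules differ in sequence. RefSeq (GRCm38.p6) windows of 300 bases, from 250 bases before to 50 after a gene's start, were at hand for 33 of the 39 members, 16 of replication and 17 of mitosis, and the windows of the 2 members of each module with the most UMIs among those matched are shown. They are Pcna (chr2:132253131-132253430, minus strand), Mcm6 (chr1:128359656-128359955, minus strand), Mki67 (chr7:135716330-135716629, minus strand) and Hmgb2 (chr8:57511593-57511892, plus strand). Each is written 5′ to 3′ along the gene, and capitals mark, on either strand, CCAAT, which NF-Y binds, TTTGAA, the letters of CHR elements, and 4 strings of E2F sites. The E2F strings were GCGGGAA, its longer form GGCGGGAA that contains it, then GCGCGAA and last, as a variant, GCGCCAA.
Pcna: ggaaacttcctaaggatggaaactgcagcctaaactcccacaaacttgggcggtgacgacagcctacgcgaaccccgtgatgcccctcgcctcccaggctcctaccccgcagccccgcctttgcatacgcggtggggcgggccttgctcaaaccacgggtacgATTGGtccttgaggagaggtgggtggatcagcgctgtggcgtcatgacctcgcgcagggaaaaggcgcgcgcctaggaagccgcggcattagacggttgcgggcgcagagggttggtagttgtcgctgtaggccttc
Mcm6: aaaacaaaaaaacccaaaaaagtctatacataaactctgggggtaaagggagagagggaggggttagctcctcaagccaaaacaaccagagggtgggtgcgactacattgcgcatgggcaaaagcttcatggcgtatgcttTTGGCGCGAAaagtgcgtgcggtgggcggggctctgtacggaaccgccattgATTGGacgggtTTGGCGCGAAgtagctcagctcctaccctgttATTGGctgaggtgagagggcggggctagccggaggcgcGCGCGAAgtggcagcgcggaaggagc
Mki67: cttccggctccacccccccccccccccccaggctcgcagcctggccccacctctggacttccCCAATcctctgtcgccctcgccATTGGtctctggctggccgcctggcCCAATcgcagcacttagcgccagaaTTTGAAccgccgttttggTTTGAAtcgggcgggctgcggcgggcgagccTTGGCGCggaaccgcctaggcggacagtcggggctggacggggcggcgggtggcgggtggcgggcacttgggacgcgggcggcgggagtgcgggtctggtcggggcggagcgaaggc
Hmgb2: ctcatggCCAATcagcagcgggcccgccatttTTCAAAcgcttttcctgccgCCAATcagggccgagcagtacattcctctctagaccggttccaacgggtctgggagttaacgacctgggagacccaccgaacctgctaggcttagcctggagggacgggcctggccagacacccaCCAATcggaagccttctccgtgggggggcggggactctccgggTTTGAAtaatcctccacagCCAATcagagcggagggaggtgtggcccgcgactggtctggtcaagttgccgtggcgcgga
The Pcna window held 1 match, a CCAAT, and the Mcm6 window held 7, of which the E2F letters GCGCCAA and GCGCGAA overlap each other at 2 places. The Mki67 and Hmgb2 windows held 6 matches each, with 2 copies of TTTGAA in both. Mcm4, Gins2, Ccna2, Stmn1, Aurkb and Tpx2 were not matched to a window.

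A gene was counted when any of its windows held the letters, and 3 members had more than 1 window. Over the module, TTTGAA lay in the windows of 13 of 17 mitosis members (76.5%) and of 1 of 16 replication members, Mcm2 (6.25%). It lay in 17.9% of all 32851 windows and in those of 20.2% of all 27025 genes. The mitosis members without it were Ccnb1, Birc5, Nusap1 and Bub1. CCAAT was held by 15 of 17 mitosis members (88.2%) and 11 of 16 replication members (68.8%), against 37.4% of all windows and 41.1% of all genes. All 13 mitosis members with TTTGAA also held CCAAT, and 6.95% of all windows and 7.97% of all genes held both. The E2F letters had the opposite distribution. At least 1 of the 4 E2F strings was held by 11 of 16 replication members (68.8%) and 3 of 17 mitosis members (17.6%). It was held by 8.07% of all windows and 9.2% of all genes. GCGGGAA alone was held by 9 of 16 replication members (56.2%), 0 of 17 mitosis members, 4.6% of all windows and 5.29% of all genes. For GCGCGAA the shares of replication members, mitosis members and all genes were 31.2%, 5.88% and 1.81%. For GCGCCAA they were 31.2%, 17.6% and 2.85%, and for GGCGGGAA 18.8%, 0 and 2.52%. A match of letters is a description of the window, and binding was not measured here.

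A minimum of 1000 UMIs left 2235 cells of 2688 wells, 250 to 369 per plate, with 2615624 to 9498860 UMIs per plate. Corpus replicate 1 and pylorus replicate 1 stood apart: spike-ins took 4.27% and 6.55% of their UMIs against 0.256% to 0.426% in the other 5 plates, and they had the lowest median UMIs per cell. In the clustering described below, 3 plates (pylorus replicate 1, corpus replicates 1 and 2) had most of their pit-like, neck-like and chief-like cells in other clusters than the 4 remaining plates, while tuft-like and parietal-like cells of all plates shared a cluster each. Results on regions are therefore also given for those 4 similar plates alone, corpus replicates 3 and 4 and pylorus replicates 2 and 3. The same 384 well barcodes occur in every plate by design.

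All 39 members were detected in every plate. The 18 replication genes together took 0.107%, 0.0358%, 0.0314% and 0.0321% of UMIs in the corpus plates, replicates 1 to 4 in turn, and 0.0413%, 0.0407% and 0.0361% in the pylorus plates, replicates 1 to 3. The 21 mitosis genes took 0.251%, 0.0273%, 0.0425% and 0.0595% in the corpus plates and 0.0593%, 0.0950% and 0.0705% in the pylorus plates. Corpus replicate 1 was the highest plate for both sums, and the other 6 plates lay close together for replication and spread more widely for mitosis. There was 2.36 times as much mitosis as replication transcript in corpus replicate 1 and 2.34 times as much in pylorus replicate 2, whereas the ratio was 0.761 in corpus replicate 2, the 1 plate where the replication sum was the larger. The mean replication sum was 0.0515% ± 0.0368 (SD, n = 4) in corpus and 0.0394% ± 0.00283 (SD, n = 3) in pylorus, and the mean mitosis sum was 0.0951% ± 0.105 and 0.0749% ± 0.0183. Without corpus replicate 1 the corpus means were 0.0331% ± 0.00237 (SD, n = 3) and 0.0431% ± 0.0161. In a sum over all cells of a plate, fewer cells of a type and less RNA per cell cannot be told apart.

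**Figure D1:**
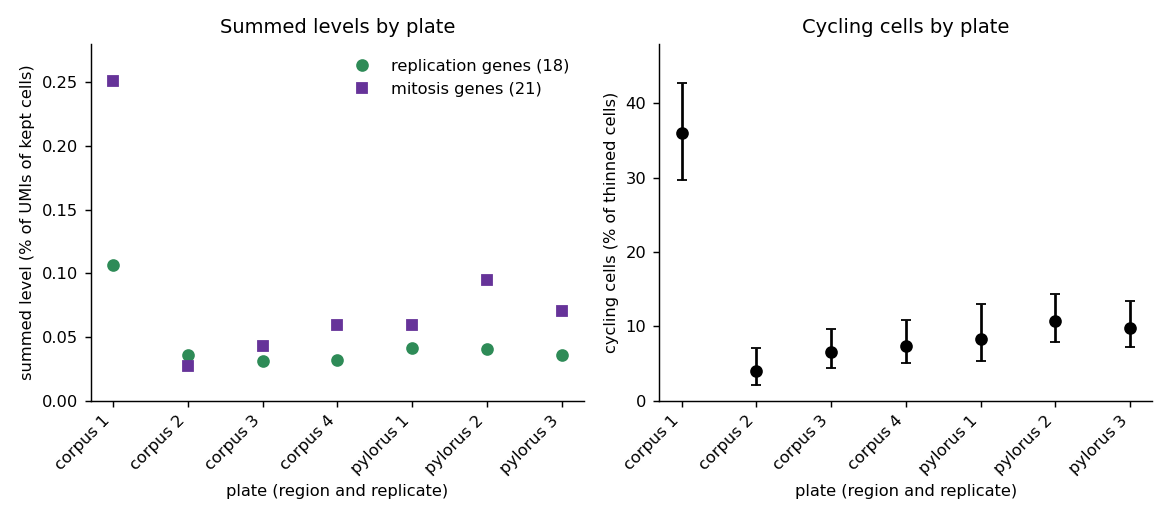
Left, summed level of the 18 replication genes (circles) and 21 mitosis genes (squares) in each plate, in % of the UMIs of kept cells. Right, share of cycling cells per plate, in % of cells thinned to 3000 UMIs, with 95% Wilson intervals; corpus replicate 1 lies above the other 6 plates in both panels, at 36.0% cycling cells.

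Among the replication genes, Pcna stood at 271, 86.3, 72.2 and 84.3 CPM, which scales the UMIs of a gene to all UMIs of the plate, in the corpus plates, replicates 1 to 4 in turn, and at 113, 102 and 92.3 CPM in the pylorus plates, replicates 1 to 3. Mcm6, a helicase subunit, stood at 119, 42.8, 26.2 and 30.4 CPM in corpus and 45.5, 33.1 and 31.1 CPM in pylorus. Rrm1, the large subunit of ribonucleotide reductase, gave 98.4, 30.9, 29.9 and 29.5 CPM in corpus and 29.4, 40.5 and 33.8 CPM in pylorus. All 3 genes were highest in corpus replicate 1, and the remaining corpus plates overlapped the pylorus plates for Mcm6 and Rrm1 and lay below them for Pcna. Slbp, which binds the stem-loop of histone transcripts, gave 76.9, 29.7, 30.1 and 29.9 CPM in corpus and 51.6, 37.7 and 33.6 CPM in pylorus, so that corpus replicates 2 to 4 were nearly level and below each pylorus plate. The other 14 replication genes had means between 6.91 and 28.8 CPM in a region, each with corpus replicate 1 as the highest plate.

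Among the mitosis genes, Mki67, which coats mitotic chromosomes and is the standard stain for dividing cells, stood at 322, 39.2, 48.2 and 79.4 CPM in corpus and 63.5, 110 and 82.6 CPM in pylorus. Hmgb2, a chromatin protein that is abundant in dividing cells, gave 310.0, 51.5, 57.7 and 59.7 CPM in corpus and 79.9, 85.4 and 69.9 CPM in pylorus. Top2a gave 189, 30.4, 41.3 and 52.0 CPM in corpus and 45.1, 83.0 and 69.6 CPM in pylorus. Corpus replicate 1 was again above every other plate for each of these genes, and for Hmgb2 the other corpus plates lay below all pylorus plates. Stmn1, which destabilises microtubules, had the flattest profile of the 4, with 112, 32.1, 58.6 and 74.4 CPM in corpus and 52.4, 95.5 and 89.3 CPM in pylorus. For all 39 members the plates of the regions overlapped, with corpus replicate 1 the highest plate for each. Overlap was the common case, since only 3.21% of all genes tested had none.

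The transcripts were concentrated in few cells. To compare cells of unequal depth, 2041 cells with at least 3000 UMIs were thinned to 3000 UMIs each, and 194 shallower cells were left out (75, 24, 9 and 10 in corpus and 46, 17 and 13 in pylorus). Of the thinned cells, 1052 (51.5%) had no replication UMI and 1188 (58.2%) no mitosis UMI. A cell is called cycling here when either sum reached 6 UMIs, which is 0.2% of its UMIs, and 219 cells (10.7%) did. Of these, 121 passed for mitosis alone, 60 for replication alone and 38 for both. The call is a range on a continuous score and not a type: the larger sum was 4 or 5 in 50 cells just below the threshold and 6 or 7 in 38 just above it, and the highest sums were 20 for replication and 46 for mitosis. The cycling cells held 34.6% to 77.4% of a plate's replication UMIs and 65.4% to 92.4% of its mitosis UMIs, so that replication transcripts were less confined to them in each of the 7 plates. These shares follow from the call and are a description.

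**Figure D2:**
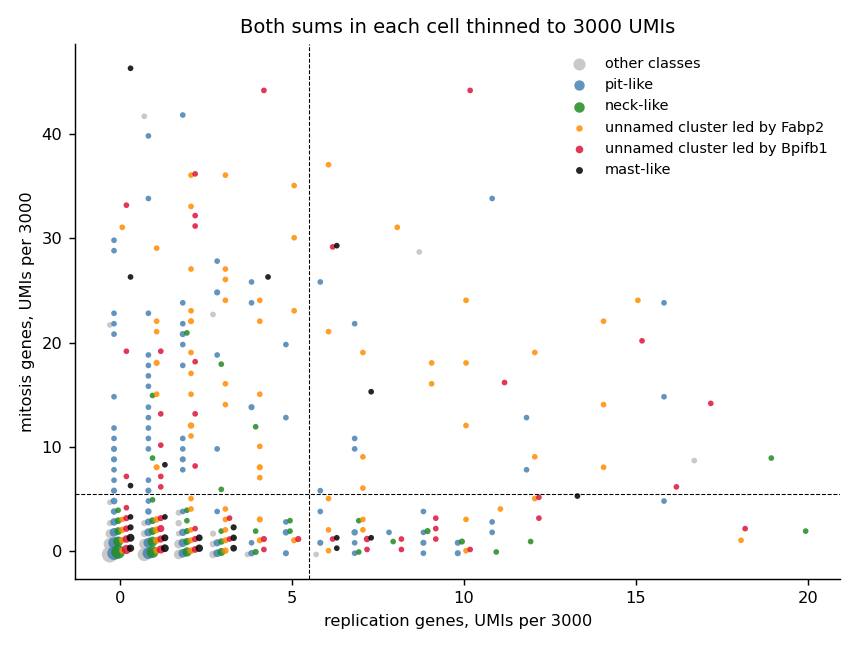
Replication sum against mitosis sum of the 2041 cells thinned to 3000 UMIs, coloured by class, with dot area growing with the number of cells at a point and classes shifted slightly so that they do not cover each other. Dashed lines mark 6 UMIs; 38 cells lie above both lines, 121 above the mitosis line alone and 60 right of the replication line alone.

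Cycling cells made up 36.0% of thinned cells in corpus replicate 1 (73 of 203, 95% Wilson interval 29.7% to 42.8%). The share was 3.92% in corpus replicate 2 (10 of 255), 6.53% in replicate 3 (23 of 352) and 7.41% in replicate 4 (24 of 324). In pylorus it was 8.33% in replicate 1 (17 of 204), 10.7% in replicate 2 (37 of 347) and 9.83% in replicate 3 (35 of 356). The 3 pylorus plates lay between corpus replicate 1 and the other 3 corpus plates. The mean share was 13.5% ± 15.1 (SD, n = 4) in corpus and 9.61% ± 1.18 (SD, n = 3) in pylorus, so the difference was smaller than the spread between the corpus plates. Cells with a high mitosis sum averaged 10.1% ± 12.5 in corpus and 6.87% ± 0.571 in pylorus, and cells with a high replication sum 6.16% ± 6.74 and 4.11% ± 1.13. The median cycling cell held more UMIs before thinning than the median other cell in 7 of 7 plates, for example 34666.5 against 20486 in corpus replicate 2. Its UMIs relative to the spike-ins of its well were higher too, and the part of RNA content in the calls was not tested.

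The members were then read by kind of cycling cell. Replication-high cells passed for replication alone, whereas mitosis-high cells passed for mitosis and include the 38 cells that passed for both, so the groups differ in the sums by definition and the levels are a description. To keep a gene from choosing the cells it is read in, each member was measured in cells called by the other members, as the mean ± SD over 7 plates of its UMIs per 10000. Mcm6 stood at 4.44 ± 1.76 in replication-high cells, at 1.36 ± 1.05 in mitosis-high cells and at 0.271 ± 0.164 in other cells. Pcna stood at 5.45 ± 1.13, 2.75 ± 1.02 and 0.745 ± 0.260. In cells that passed for mitosis alone, Mcm6 stood at 0.519 ± 0.384 and Pcna at 1.55 ± 0.531. The reductase subunits were closer between the kinds: Rrm1 stood at 1.59 ± 0.762 in replication-high and 1.78 ± 0.629 in mitosis-high cells, and Rrm2, its small subunit, at 0.716 ± 0.825 and 1.37 ± 0.671. These genes are grouped with replication, yet their levels in mitosis-high and replication-high cells differed by less than the spread between plates. Low mitosis genes in replication-high cells follow from the call, also with 1 member left out, and the members were not equally low there. Mki67 stood at 7.97 ± 1.59 in mitosis-high and 0.609 ± 0.355 in replication-high cells, and Cenpf, a kinetochore protein, at 2.94 ± 0.842 and 0. Hmgb2, Stmn1 and Top2a were also read in replication-high cells, at 1.495 ± 1.13, 1.51 ± 1.11 and 0.860 ± 0.928, against 7.23 ± 1.41, 5.06 ± 1.48 and 6.04 ± 1.95 in mitosis-high cells.

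**Figure D3:**
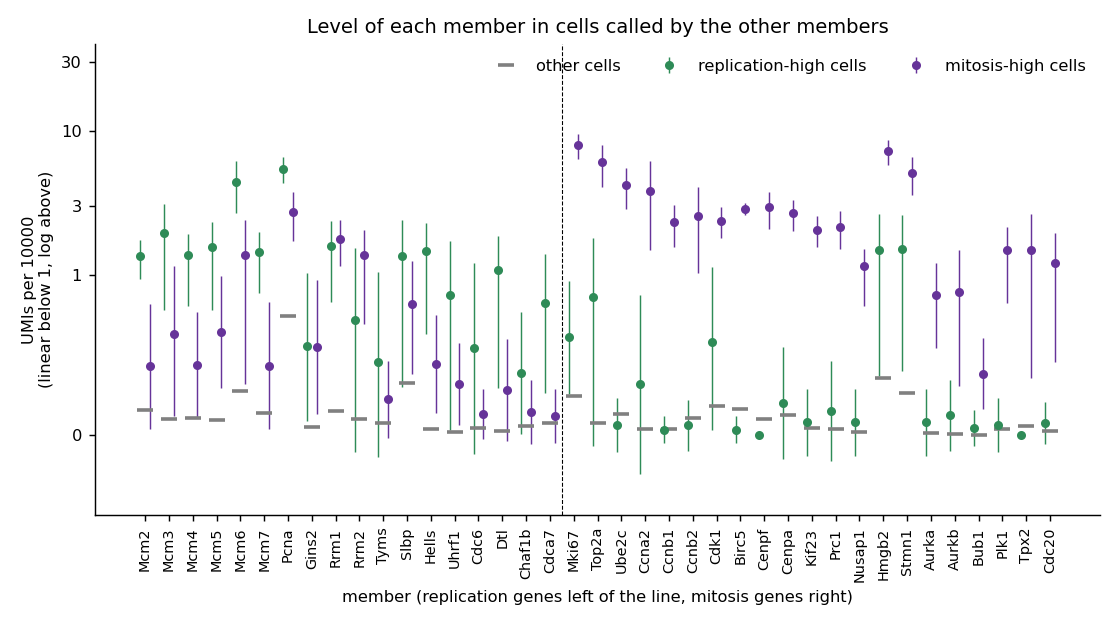
Level of each of the 39 members in UMIs per 10000 (axis linear below 1, logarithmic above), as mean ± SD over plates, in replication-high (green) and mitosis-high (purple) cells called by the other members, with the mean of other cells as a grey dash. Mki67 stood at 7.97 in mitosis-high and 0.609 in replication-high cells, and Rrm1 at 1.78 and 1.59.

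Members also differed in how far they were confined to cycling cells, again called by the other members. Of the thinned UMIs of Bub1, a spindle checkpoint kinase, 100% lay in cycling cells, but there were only 17. The share was 95.7% for Aurkb (47 UMIs), 90.9% for Ccna2 (186), 89.8% for Aurka (49), 89.2% for Nusap1 (65), 87.8% for Cdc20 (74) and 87.5% for Top2a (295). It was 73.8% for Mki67 (484 UMIs), 66.9% for Hmgb2 (538) and 61.1% for Stmn1 (391). The order among members with few UMIs is therefore uncertain. Among replication genes the share was highest for Uhrf1 (74.4% of 39 UMIs), Dtl (69.4% of 49) and Hells (67.2% of 61). It was 47.4% for Mcm6 (251 UMIs), 36.9% for Pcna (601) and 25.9% for Slbp (224). Most Pcna, Slbp and Mcm6 transcripts were thus read outside the cells that the other members called. The same held for Tyms (33.9% in cycling cells), Mcm2 (35.2%), Chaf1b (36.6%), Cdca7 (40.3%), Mcm7 (42.2%), Cdc6 (43.2%) and Mcm4 (45.9%). Calls made without Hmgb2 and Stmn1 gave 204 cycling cells and calls without Pcna and Mki67 gave 198.

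Cell classes were taken from clusters built without the members and the lists of other replication and mitosis genes, and were named from marker genes. Genes outside those lists that go with the cell cycle were not left out, so the shares by class are not independent of the clustering. Pit-like cells (surface mucous cells) held 85 cycling cells of 559 (15.2%, 95% Wilson interval 12.5% to 18.4%). Their share was 17.4%, 21.4%, 11.7% and 12.6% in corpus and 9.21%, 21.2% and 16.7% in pylorus by replicate, with plates of both regions spread over the whole range. Neck-like cells held 17 of 435 (3.91%), 8 of them among the 55 neck-like cells of corpus replicate 1, and without that plate the share was 2.37%. In the 4 similar plates it was 1.24%. The chief-like class held 0 of 282, which allows up to 1.34%, and the tuft-like class, chemosensory cells, 0 of 49, which allows up to 7.27%. Endocrine-like cells held 1 of 259 (0.386%) and parietal-like cells 3 of 138 (2.17%), 1 in each pylorus plate. Pit-like, neck-like and chief-like cells fell into separate clusters by plate: those pit-like cells that came from corpus replicate 1 or 2 or pylorus replicate 1 lay in a cluster with 17 cycling of 127, and those of the other plates in clusters with 49 of 261 and 19 of 171.

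The highest shares lay in clusters that the markers did not name. In the cluster led by Bpifb1, Slc1a3 and Dmbt1, 35 of 114 cells were cycling (30.7%): 8 of 28 and 7 of 24 in corpus replicates 3 and 4, 9 of 24 and 10 of 35 in pylorus replicates 2 and 3, and 1 of 3 in pylorus replicate 1. Its share was of like size in the 4 plates that hold most of it. In the cluster led by Fabp2, Gstm3 and Dmbt1, 65 of 113 cells were cycling (57.5%). That cluster came almost wholly from corpus replicate 1, with 60 of 108 cells cycling there and 5 of 5 in pylorus replicate 1, so it may be that library and not a type. It held 60 of the 73 cycling cells of that plate. Among its leading genes was Shcbp1, which was not left out of the clustering and was itself higher in cycling cells.

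**Figure D4:**
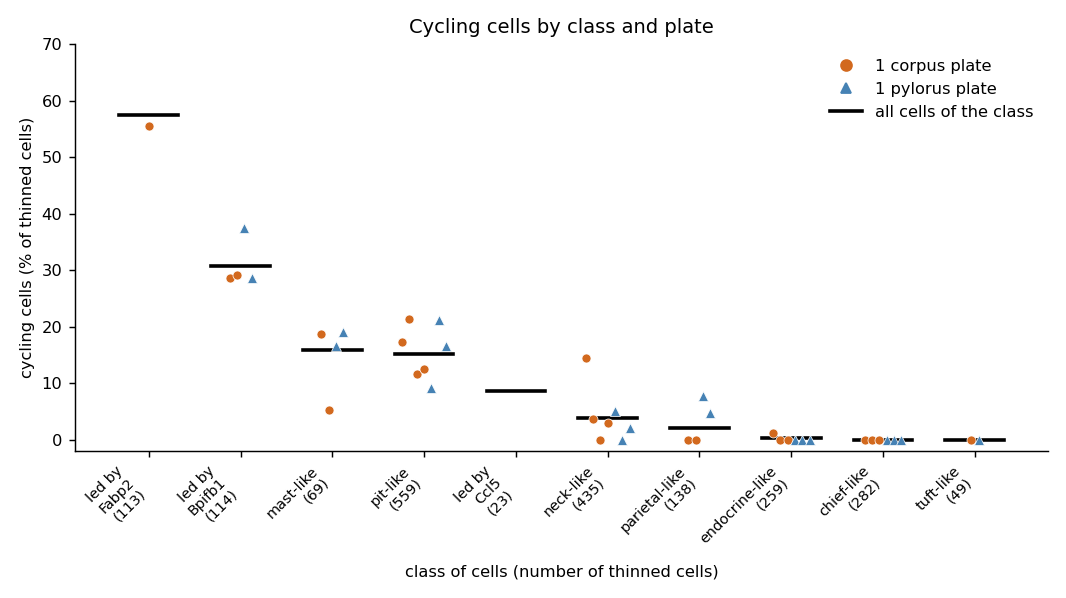
Share of cycling cells in each class, in % of cells thinned to 3000 UMIs, per plate with at least 10 cells of the class (circles corpus, triangles pylorus) and over all cells of the class (bar). Shares run from 57.5% in the unnamed cluster led by Fabp2 to 0 in chief-like and tuft-like cells.

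Mast-like cells, an immune cell type that was sorted along with the epithelium, also held cycling cells, 11 of 69 (15.9%), and a single mast-like cell had the highest mitosis sum of all, 46 UMIs of 3000. They came from corpus replicate 1 (1 of 1), replicate 3 (3 of 16) and replicate 4 (1 of 19) and from pylorus replicates 2 (2 of 12) and 3 (4 of 21). Many mast-like cells were too shallow to be thinned. Without thinning, 10 of all 108 kept mast-like cells (9.26%) passed at 0.2% of UMIs, and at 5000 UMIs 7 of 37 (18.9%) did. Mast markers had a median of 590 UMIs per 10000 in the cycling mast-like cells and 422 in the other 58, and pit markers 157 and 218. With each gene read in mast-like cells called by the other members, Mki67 was found in 70% of 10 cycling and 6.78% of 59 other cells, and Stmn1 in 60% and 5.08% of as many. Top2a was found in 63.6% of 11 and 8.62% of 58. Not every member differed so. Among replication genes read in as many cells, Rrm1 was found in 9.09% and 6.90%, and Tyms in 9.09% and 12.1%. Gins2 and Hells were found in 0% of both, while Rrm2 was found in 27.3% and 0%. The members of a sum go together, so these shares describe the called cells. In chief-like cells, of which none was cycling, 28.4% had at least 1 replication UMI and 27.7% at least 1 mitosis UMI among 3000. In non-cycling cells of the other classes, a replication UMI was found in 32.6% (parietal-like) to 63.8% (mast-like) and, in the Fabp2-led cluster, in 81.25%. The part of free RNA in such shares was not tested.

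The kind of cycling cell varied between classes. Of the 85 cycling pit-like cells, 54 passed for mitosis alone, 21 for replication alone and 10 for both. Of the 17 neck-like ones, 6 passed for mitosis alone, 10 for replication alone and 1 for both, and the Bpifb1-led cluster gave 15, 14 and 6. Replication-only cells were the most numerous kind in the neck-like class alone of these 3, and no test was made of it. Cycling pit-like cells carried fewer pit markers than the other pit-like cells (median 940 against 1622 UMIs per 10000) and more neck markers (123 against 63.3). Cycling neck-like cells carried more neck markers (167 against 33.3) and fewer chief markers (837 against 1693), and the non-cycling neck-like cells held far more chief than neck marker transcript. These medians are a description, since the classes were built from such genes and the cells were pooled over plates. In the neck-like cluster of corpus replicates 1 and 2 and pylorus replicate 1, 12 of 168 cells were cycling. In the neck-like cluster mainly of the 4 similar plates, 3 of 246 were. The part of the plates in the neck-like medians was not tested.

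Summed over all cells of a class, the replication genes took 0.0119% ± 0.00119 of UMIs in chief-like cells (SD, n = 6 plates) and 0.0552% ± 0.0248 in pit-like cells (n = 7). They took 0.0354% ± 0.0172 in neck-like (n = 7), 0.0657% ± 0.0213 in mast-like (n = 4) and 0.100% ± 0.0272 in Bpifb1-led cells (n = 4). The mitosis genes took 0.0117% ± 0.00592 in chief-like, 0.0236% ± 0.0175 in neck-like, 0.0997% ± 0.0346 in pit-like, 0.0969% ± 0.0698 in mast-like and 0.178% ± 0.114 in Bpifb1-led cells. Among these 5 classes both sums were lowest in chief-like and highest in Bpifb1-led cells, with neck-like cells next to chief-like. Neighbours in the order overlapped within 1 SD, except chief-like against neck-like cells for replication. Pcna had 33.0 ± 5.40 CPM in chief-like and 143.5 ± 49.4 CPM in pit-like cells, and Mki67 11.1 ± 5.95 and 133 ± 60.3 CPM.

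The question the labels pose is how corpus and pylorus differ. Over all kept cells of the 7 plates, 0 of 39 members passed in limma at a Benjamini-Hochberg adjusted p under 0.05, where 2 of 12003 genes tested did (0.0167%). The smallest unadjusted p of a member was 0.226 (Uhrf1), while 153 genes had an unadjusted p under 0.05. The median log2 difference, pylorus minus corpus on log2(CPM + 2), was 0.13 for the 39 members against −0.00 for all genes, −0.23 for the 18 replication genes, of which 4 were positive, and 0.28 for the 21 mitosis genes, of which 18 were positive. Pcna differed by −0.05 ± 0.36 (SE) and Mki67 by 0.03 ± 0.59, and such errors leave differences of about that size undetectable here. Without corpus replicate 1, 34 of 39 members were higher in pylorus with a median of 0.49, and without corpus replicate 2 only 3 of 39 were, with a median of −0.23; again 0 passed in either case.

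In the 4 similar plates, 6 of 39 members passed, all of them mitosis genes and all higher in pylorus, where 434 of 11978 genes passed (3.62%) and 203 were higher in pylorus (1.69%). These plates were picked for their likeness in the clustering of these same data. The spread between them may therefore understate that between plates at large, and p-values from them may be too small. Cyclin B1 (Ccnb1), the partner of Cdk1 at mitotic entry, stood at 11.6 and 13.6 TMM-scaled CPM in corpus replicates 3 and 4 and at 35.8 and 21.9 in pylorus replicates 2 and 3, a log2 difference of 1.05 ± 0.19 (SE, limma adjusted p = 0.00743). Cdc20, which activates the ubiquitin ligase that destroys cyclin B, stood at 3.62 and 6.73 CPM in corpus and 14.3 and 9.51 in pylorus (0.97 ± 0.23, adjusted p = 0.0339). Tpx2, a spindle assembly factor, stood at 11.4 and 18.3 CPM in corpus and 29.5 and 24.2 in pylorus (0.80 ± 0.19, adjusted p = 0.0299). Cenpa, the centromeric histone, differed by 0.71 ± 0.16 (adjusted p = 0.028), Kif23, a motor of the central spindle, by 0.66 ± 0.16 (0.0345) and Top2a by 0.58 ± 0.13 (0.0277). For these 6 genes the plates of the regions did not overlap, which held for 19 of 39 members and for 46.4% of all genes tested, a share close to that of the members. Of the 39, 35 were positive with a median of 0.30, against 0.01 for all genes. With 2 plates a region, the plates also differed in make-up: cycling cells took 6.53% and 7.41% in corpus and 10.7% and 9.83% in pylorus. The part of that difference in the 6 calls was not tested.

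**Figure D5:**
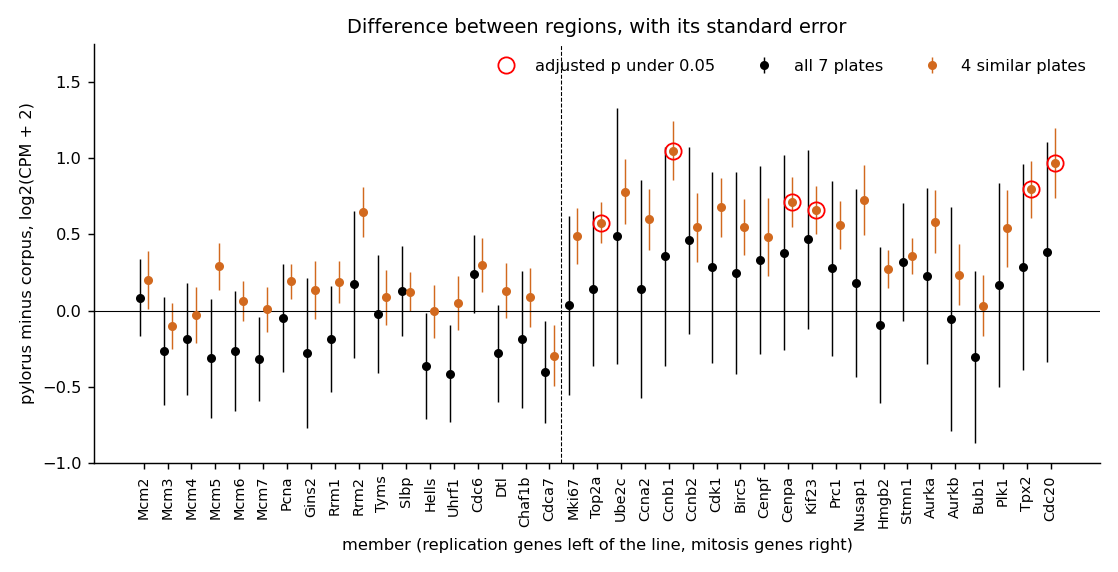
Log2 difference of each member, pylorus minus corpus on log2(CPM + 2), with its standard error, over all 7 plates (black) and over the 4 similar plates (orange). Red circles mark the 6 members with an adjusted p under 0.05 in the 4 similar plates, and Ccnb1 is the highest at 1.05.

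Among cycling cells alone, over 7 plates 0 of 39 members passed, and so did 0 of 7793 genes (0%), with 231 genes at an unadjusted p under 0.05. The member with the smallest p was Cdca7, a replication gene and chromatin factor, at 34.6, 43.0, 48.2 and 36.6 CPM in corpus and 8.64, 23.7 and 13.4 CPM in pylorus. The plates did not overlap, and the log2 difference was −1.39 ± 0.33 (SE) with an adjusted p = 0.997 in limma. Ccnb1 differed by 0.42 ± 0.26 over the 7 plates. In the 4 similar plates 14 of 7700 genes passed (0.182%) and again 0 members, and Ccnb1, Tpx2 and Cdc20 differed by 0.59 ± 0.20, 0.52 ± 0.20 and 0.56 ± 0.26 with adjusted p-values of 0.638, 0.708 and 0.828.

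Within classes, 0 of 9798 genes passed in pit-like cells (0%), where 7 of the 39 members were positive with a median of −0.21 against 0.02 for all genes. Without pylorus replicate 1, 23 of 39 were positive with a median of 0.08, and in the 4 similar plates 30 of 39 with a median of 0.15. In those 4 plates 257 of 9713 genes passed in pit-like cells (2.65%) and 2 of 39 members did. Rrm2 was higher in pit-like cells of pylorus, at 31.4 and 40.9 CPM against 16.4 and 16.9 (log2 difference 1.02 ± 0.18, adjusted p = 0.000518 in limma), and so was Tpx2 (0.70 ± 0.18, adjusted p = 0.0227). Neck-like cells gave 3 of 8105 genes (0.037%) and 0 of the 21 members tested, and mast-like cells 5 of 1658 (0.302%) and 0 of 5. In parietal-like cells 5 of the 15 members tested passed, all higher in pylorus, where 568 of 7015 genes passed (8.1%) and 262 were higher (3.73%). Cyclin A2 (Ccna2) stood at 0.494 and 1.64 CPM in corpus and 9.72 and 27.1 CPM in pylorus (2.62 ± 0.58, adjusted p = 0.0122), and Ccnb1, Cenpf, Top2a and Rrm2 were the others. Each of the 2 pylorus sums contained 1 cycling parietal-like cell and the corpus sums contained none. A member as low in corpus as Ccna2 passed the filter on low counts only through the pylorus plates. The number of members called and their direction were therefore partly set by the filter, and they rest on few cells. For these reasons the test cannot decide whether the members differ between regions in parietal-like cells. Leaving out 1 plate left a single plate in a region, and the number of members called then changed with the plate left out.

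What else the cycling cells expressed was read by comparing them with the other cells of the same plate, with the members left out and plate as a block. Of 8434 genes, 3108 passed (36.9%), 1474 higher (17.5%) and 1634 lower (19.4%) in cycling cells, with a median log2 difference of −0.05. Scaled to all UMIs of a cell set instead, 2704 were higher and 832 lower and the median of all genes moved to 0.18, so the small differences below are relative to the typical gene. Of 42 other replication genes tested, 41 rose and none fell, with a median of 2.33. Thymidine kinase (Tk1) stood at 144 ± 21.3 CPM in cycling and 7.73 ± 3.16 CPM in other cells, and the DNA ligase Lig1 at 114.5 ± 51.9 and 14.9 ± 6.42 CPM, both higher in 7 of 7 plates. The exception was Blm, a repair helicase, at −0.30. Of 57 other mitosis genes, 57 rose, with a median of 3.41, among them the histone variant H2afz (1.84) and the tubulins Tuba1b (2.74) and Tubb4b (1.76). These lists share their biology with the members that called the cells.

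Regulators of entry into the cycle were mixed. Of 11 genes for G1 cyclins, kinases and their partners, 6 rose and 2 fell, with a median of 0.45. Cdk2, which drives S phase, rose by 1.05 ± 0.19 (SE, limma), Cdk4 by 0.66 and the Rb relative Rbl1 by 2.54. Ccnd2 (cyclin D2) fell in 7 of 7 plates, from 273 ± 72.8 CPM in other to 156 ± 61.8 CPM in cycling cells. Of 10 cell cycle inhibitors, 3 rose and 5 fell, with a median of −0.61. The kinase inhibitors Cdkn1c (−3.23) and Cdkn1a (−1.66) and the antiproliferative gene Btg2 (−0.98) fell, whereas Cdkn2c (2.04), Cdkn2d (1.67) and Cdkn1b (0.62) rose.

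Of 14 nucleolar and growth genes, 14 rose, with a median of 0.80. Npm1, a nucleolar chaperone, stood at 741 ± 182 CPM against 421 ± 103 CPM, and Ran, the nuclear transport GTPase, at 454 ± 68.9 against 154 ± 23.0 CPM. Of 10 gland progenitor genes, 2 rose and 5 fell: Iqgap3, which marks isthmus progenitors, stood at 71.4 ± 26.9 CPM in cycling and 3.56 ± 2.58 CPM in other cells, and Tnfrsf12a rose by 0.71, while Bhlha15 (−2.83), a chief cell factor, Cckbr (−1.94), the gastrin receptor, Lrig1 (−0.70) and Sox9 (−0.61) fell. Of 8 mitochondrially encoded genes 6 fell and none rose (median −0.39), and of 12 dissociation stress genes 5 fell and 1 rose (median −0.29). Scaled to all UMIs, none of the mitochondrially encoded genes passed (median −0.13), while 2 stress genes fell and 3 rose (median −0.05), and Lrig1 no longer passed. In the 4 similar plates, 3 stress genes fell and 2 rose, with a median of 0.10.

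Most chief, endocrine, tuft and parietal marker genes were lower in the summed cycling cells of a plate, while pit and neck markers were mixed. All 5 chief markers tested fell, among them Gif, gastric intrinsic factor, from 2483 ± 1846 to 116 ± 44.2 CPM and Pgc, pepsinogen C, by 1.02 on the log2 scale. All 7 endocrine and all 6 tuft markers fell, and 6 of 7 parietal markers. Of 7 pit markers 2 fell (Psca −1.63, Capn9 −1.49), with a median of −0.23 that turned to 0.03 when scaled to all UMIs, and of 3 neck markers Muc6 (−2.11) and A4gnt (−1.65) fell and Tff2 rose by 0.89. None of 5 mast markers and 1 of 5 immune markers passed. Per cell, the summed markers gave another picture: the median was 303 UMIs per 10000 in cycling and 207 in other cells for pit, 133 and 20 for neck and 33.3 and 23.3 for parietal markers, each lower in cycling cells in 0 of 7 plates. The per-cell median was 503 and 698 for chief markers (lower in 6 of 7 plates) and 10 and 16.7 for endocrine markers (7 of 7). A sum weighs genes by abundance and a median is taken over cells, whereas the fit reads each gene in plate sums. What sets these medians apart from the fit was not tested. Markers of a list differed widely in level. In cells that passed for mitosis alone, in corpus replicate 1 and pylorus replicates 2 and 3, the neck marker Tff2 stood at 13740 CPM and A4gnt at 57.2 CPM. The parietal marker Car2 stood at 3260 CPM there and Atp4b at 250 CPM. The class make-up of the cycling cells differs from that of the other cells, with no chief-like and nearly no endocrine-like cell among them, and its part in these differences was not tested. The endothelial, stromal, acinar, squamous and red blood cell markers had medians of 0 per cell in both kinds.

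Among genes in no cycle list, the largest rises were those of Aspm (4.55), a spindle pole protein, Cep55 (4.35), which acts at the final cut between daughter cells, Melk (3.99), Esco2 (3.95), an acetylase of cohesin, Shcbp1 (3.88), Ccnf (3.88), Prr11 (3.88), Dlgap5 (3.80), Iqgap3 (3.77) and C330027C09Rik (3.59). The largest falls were those of Nupr1 (−4.46), Gif (−4.17), Gm12888 (−4.15), Chgb (−3.99), a granin of endocrine cells, Fxyd6 (−3.91), Pnliprp2 (−3.80), Gc (−3.79), Pnliprp1 (−3.79), Gpr30 (−3.70) and Nov (−3.54). Each of these 20 had the same sign in 7 of 7 plates.

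Mitosis-high and replication-high cells could be compared within corpus replicate 1 and pylorus replicates 2 and 3. The kinds differed in class make-up. Over all plates, the 60 replication-high cells held 21 pit-like, 10 neck-like, 14 Bpifb1-led and 10 Fabp2-led cells. The 121 cells that passed for mitosis alone held 54, 6, 15 and 38. The part of class in the differences between the kinds was not tested. Of 6167 genes, 159 passed (2.58%), 126 higher (2.04%) and 33 lower (0.535%) in mitosis-high cells, with a median of 0.03. The groups were chosen by high and low sums of the members, and the mitosis-high sums hold the cells that passed for both (18 of 58, 7 of 26 and 4 of 24 cells), so the genes that go with the members had to differ. Of 55 other mitosis genes, 51 rose and none fell (median 2.85), which the choice of cells sets. Of 39 other replication genes, 3 rose and 8 fell (median −0.56): the histone chaperone Nasp fell by 0.96, whereas Tk1 rose, from 86.3 ± 16.7 to 176 ± 22.5 CPM, and 2810417H13Rik rose by 1.47. With the cells that passed for both left out, an alternative added after seeing the data, 17 of 37 other replication genes fell and 2 rose (median −1.42), Nasp fell by 1.42 and 2810417H13Rik rose by 1.25. Tk1 then stood at 146.5 ± 16.6 against 86.1 ± 16.2 CPM and did not pass (0.76 ± 0.21, adjusted p = 0.0548 in limma).

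Cyclin D1 (Ccnd1) was lower in mitosis-high than in replication-high cells. It stood at 213 ± 12.4 CPM in replication-high and 76.3 ± 19.7 CPM in mitosis-high cells (log2 difference −1.49 ± 0.21 SE, adjusted p = 0.00023 in limma), lower in 3 of 3 plates. Ccnd2 fell from 292 ± 60.9 to 143 ± 64.8 CPM (−1.09 ± 0.23, adjusted p = 0.0111). The other 5 genes of that list did not pass. Without the cells that passed for both, Ccnd1 fell by 1.62 and Ccnd2 by 1.54, and 4 of these 7 genes fell. None of 6 inhibitors passed, and Nolc1, which fell by 0.92, was the 1 of 14 nucleolar genes that did.

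Outside the cycle lists, the largest rises toward mitosis-high cells were Aspm (4.99), Iqgap3 (4.84), Prr11 (4.25), Cep55 (3.98), Shcbp1 (3.93), Ccnf (3.77), Depdc1a (3.65), Fam83d (3.65) and C330027C09Rik (3.48), together with Kif14, a kinesin of late mitosis, which stood at 35.9 ± 2.77 CPM in mitosis-high cells and was not found in replication-high ones. Among the largest falls were those of Tonsl (−1.63), which protects stalled replication forks, Zfp367 (−1.56), Smarcad1 (−1.51), Casp8ap2 (−1.51), Ppp2r1b (−1.36), Rfc1 (−1.33), the large subunit of the clamp loader for Pcna, Tmem176b (−1.28), Topbp1 (−1.25) and Trim27 (−1.18). Iqgap3, listed with gland progenitor genes, thus stood at 120 ± 32.9 CPM in mitosis-high and 2.63 ± 2.30 CPM in replication-high cells. Ppp2r1b, among the falls, was also a leading gene of the Bpifb1-led cluster.

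Across single cells the genes whose profile was most like the mitosis sum were Racgap1 (mean Pearson r over the 7 plates 0.405), Cdca3 (0.385), H2afz (0.378), Smc4 (0.355), Tuba1b (0.354), Cks2 (0.349), Tubb5 (0.311) and Ccdc34 (0.304), among 5971 genes compared. For the replication sum they were Tuba1b (0.289), Tubb5 (0.240), Smc4 (0.236), Rps12 (0.229), Rpsa (0.226), Npm1 (0.221), Ptma (0.216) and Tmpo (0.215), of which Rps12 and Rpsa are ribosomal proteins. The 2 sums themselves correlated at a mean r of 0.293, from 0.204 to 0.429 by plate. Cells of a plate share library and depth effects, so these values are a description, and the r of single genes is held down by their few UMIs.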

How the data were processed

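The deposited tables hold UMI counts per gene and well, as the values show, one table per plate, and the unit was recorded as other because the layout did not pass the check for a count unit. The build is mm9, per the submitters' processing notes; neither aligner nor counter is named in the sources at hand. Each plate was 1 replicate. Wells with at least 1000 UMIs without spike-ins were kept. A count model had been planned, and in its place plate sums were TMM-scaled and log2(CPM + 2) went into limma 3.58.1 (R 4.3.3, mean trend), after a filter on low counts (10 counts at the median library size, 15 in total). The threshold was an adjusted p of 0.05 (Benjamini-Hochberg, all genes tested), and a class entered a fit with plates of 10 or more of its cells. Clusters came from scanpy 1.11.5 (Leiden resolution 1.0 in igraph 0.11.9, 2000 variable genes, 30 principal components, 15 neighbours), without batch correction. The members, the lists of other replication and mitosis genes and the mitochondrial genes were left out of them. No doublet caller was run. Markers counted when seen in over 25% of a cluster's cells, and the class with the largest mean log2 fold named it (3 markers and a mean of 0.5 needed). Wilson intervals (95%, scipy 1.17.1) cover counting error only. The members and lists were chosen with earlier results of these data known. The text names the 4 members of each module with the most UMIs, every member that passed, up to 4 genes of a list that passed (here a few more of the inhibitor and progenitor lists, picked after their values were seen), and of other genes the 10 with the largest change in each direction (at least 32 CPM on one side, the same sign in every plate) and the 8 most like each sum. The fits were tested on simulated data. The labels do not say that a number pairs plates, so the numbers were not taken to pair them. Deviations of same-numbered corpus and pylorus plates correlated at r = 0.452, −0.106 and 0.469. Those of differently numbered plates correlated at −0.511 to 0.458. Some genes that the naming rule picked are not reported here.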

Additional observations from a re-analysis of the deposited data

Results flagged for a closer look

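Corpus replicate 1 lay far above the other 3 corpus plates. Of 42 values per plate (39 members, both sums and the share of cycling cells), 30 had a gap between the highest and the next corpus plate that took more of the range of the 4 plates than Dixon's 95% limit allows, and all 30 were values of corpus replicate 1. Chance alone would single out about 1 group in 20, but these values come from the same cells and are not independent of each other. How many of all genes stood apart in the same way in that plate was not counted, so the 30 have no background share beside them. Over all kept cells of that plate the 11 replication genes concerned stood at 270.7 CPM (Pcna), 98.4 CPM (Rrm1), 76.86 CPM (Slbp), 67.95 CPM (Rrm2), 59.78 CPM (Mcm5), 58.67 CPM (Mcm3), 34.16 CPM (Gins2), 27.11 CPM (Chaf1b), 25.62 CPM (Tyms), 17.82 CPM (Dtl) and 13.37 CPM (Cdc6). The 16 mitosis genes stood at 321.6 CPM (Mki67), 310.0 CPM (Hmgb2), 253.6 CPM (Ube2c), 189.4 CPM (Top2a), 155.2 CPM (Ccna2), 145.9 CPM (Cdk1), 127.7 CPM (Cenpa), 106.9 CPM (Ccnb1), 82.8 CPM (Kif23), 74.26 CPM (Prc1), 66.09 CPM (Plk1), 61.27 CPM (Nusap1), 49.38 CPM (Cdc20), 45.67 CPM (Aurkb), 36.39 CPM (Aurka) and 27.11 CPM (Bub1). The replication sum was 0.1066% and the mitosis sum 0.251% of UMIs, and 35.96% of thinned cells were cycling. Of its 73 cycling cells, 60 lay in the unnamed cluster led by Fabp2, Gstm3 and Dmbt1, which has almost no cell in other plates. The plate also had a high spike-in share, 4.27%, and its part in these values was not tested.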

How the results depend on the processing

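The regional comparison depended on the plates. Over all kept cells 2 genes passed, and 0 did with a pseudocount of 8, with no filter on low counts or with voom weights, and 0 to 2 without 1 plate. The number of a plate as replicate block (replicates 1 to 3) left 1 gene and 0 members, and changed no call of a member. In the 4 similar plates 434 genes and 6 members passed, and by class 257 genes and 2 members in pit-like cells, 63 genes in neck-like, 44 in chief-like, 18 in endocrine-like and 14 in cycling cells. In those plates Pcna (0.19), Mcm6 (0.063), Rrm1 (0.19) and Hmgb2 (0.27) turned from negative to positive, and scaling to all UMIs turned Mki67 to −0.013. Without 1 plate the log2 differences ran from −0.19 to 0.28 for Pcna (0.04 the smallest of those that turned), from −0.44 to 0.10 for Mcm6, −0.34 to 0.13 for Rrm1, −0.048 to 0.361 for Slbp, −0.35 to 0.58 for Mki67, −0.37 to 0.41 for Hmgb2, −0.025 to 0.575 for Stmn1 and −0.20 to 0.59 for Top2a. None of these passed. By class, leaving out 1 plate gave 0 to 3 genes in chief-like, 0 to 2 in cycling, 0 to 13 in mast-like, 0 to 4 in neck-like, 0 to 1 in pit-like and 156 to 1347 in parietal-like cells, with 0 to 16 members in the last, where a pseudocount of 0.5 gave 3. Cycling against other cells gave 1864 genes without plate as a block, 2569 to 3287 without 1 plate and 4295 of 18729 with no filter. Scaled to all UMIs, 2704 of its calls were higher and 832 lower. Ccnd1 turned to −0.21 there at a threshold of 12 UMIs. The phases gave 306 genes with voom weights and 104 to 331 without 1 plate, where 2 plates were left, and 207 without cells that passed both sums. The mean replication sum of pylorus was 0.0291% without its most abundant member. A threshold of 3 or 12 UMIs moved the pylorus share of cycling cells to 16.7% or 5.41% and the corpus share to 22.3% or 8.33%. Pit-like cells had 22.4% at a resolution of 0.5 and 7.39% when clustered with the cycle genes, and neck-like cells 9.29% at 0.5, 1.24% in the 4 similar plates and 2.37% without corpus replicate 1. Endocrine-like cells had 0% at 5000 UMIs, unthinned and in the 4 similar plates, the Ccl5-led cluster 28.6% at 5000 UMIs, and the Fabp2-led cluster 100% (5 cells) without corpus replicate 1. The cause of these shifts was not tested. Of 68 other genes named for cycling cells, 1015 of 1085 values kept their direction and side of the threshold, 69 lost the call and 1 reversed, and of 31 named for the phases 153 kept it and 33 lost it. A comparison within neck-like cells alone (1 plate had enough cycling cells) and a count model were not run. The 4 similar plates within classes and for shares, the shares without corpus replicate 1 or without named members, and the alternatives for the phases were chosen after seeing the data.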

Other observations

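Some members were read outside the cycling cells of a class. In non-cycling endocrine-like cells 43.8% had a replication UMI among 3000 and 26.0% a mitosis UMI, and in non-cycling tuft-like cells 42.9% and 38.8%, against 28.4% and 27.7% in chief-like cells. Stmn1 stood at 62.7 ± 24.4 CPM in parietal-like (SD, n = 4 plates) and at 62.8 ± 42.1 CPM in tuft-like cells (n = 2), classes with 3 and 0 cycling cells. The unnamed cluster led by Ccl5, Thy1 and Ms4a4b held 2 cycling cells of 23, with a highest mitosis sum of 42 UMIs of 3000.

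In wells of corpus replicate 1 with fewer than 1000 UMIs, which were not kept as cells, replication genes took 0.0851% and mitosis genes 0.183% of 39967 UMIs. In those of the other 6 plates they took 0.0125% to 0.0486% and 0.0121% to 0.0579%.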
